A study of Mus musculus with 5 samples.

Results

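Small nucleolar RNA genes are short genes that in mammals mostly lie inside the introns of other genes, their hosts. In the gene table of this RNA Polymerase II ChIP-Seq study, rows named Snora, Snord or Scarna that span less than 500 bp were taken as such genes, and 6 of 11608 rows met this rule. These were 4 H/ACA genes (Snora62, Snora64, Snora68 and Snora70) and 2 C/D genes (Snord61 and Snord82), and 0 rows carried a Scarna name. The transcript accession of each of the 6 rows belonged to the gene of the same name. No member shared its values in all libraries with another member, so the 6 rows were 6 separate loci.

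Naïve CD4 T cells from spleens of C57BL/6 mice, 6 to 8 weeks old, were activated through CD3 and CD28 for 3 days with IL-4 (10 ng/ml) and an antibody to interferon-gamma, then grown for 4 days with IL-2 (50 U/ml) and IL-4, in all conditions. Chromatin was precipitated with an antibody to RNA Polymerase II phosphorylated on serine 2 of its carboxy-terminal repeat, a form that travels through gene bodies. The 4 conditions were *Parp14*+/+, *Parp14*+/+ + PJ34, *Parp14*-/- and *Parp14*-/- + PJ34, where the second genotype lacks PARP-14, an enzyme of the family that transfers ADP-ribose to proteins, and PJ34 is an inhibitor of ADP-ribosyltransferases that is not specific to PARP-14. PJ34 was used at 5 µM according to the methods and at 10 µM according to the sample labels. Each condition had 1 library, the authors set every library to 8200000 uniquely mapped alignments, and 1 Input library from a mixture of both genotypes served as their control for interval calling.

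Small nucleolar RNAs (snoRNAs) guide chemical changes of ribosomal and spliceosomal RNA by base pairing with it. H/ACA snoRNAs work with dyskerin to turn uridine into pseudouridine, and C/D snoRNAs work with fibrillarin to add methyl groups to ribose. Most are cut out of the intron of a host transcript after splicing and are not transcribed from a promoter of their own, and many hosts encode ribosomal proteins or other factors of ribosome production and translation. A polymerase signal over such a gene is therefore a signal over the host transcription unit, and no snoRNA level was measured here.

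The sequences of 4 loci, a pair from each class, are shown because they hold the boxes by which the classes are known. They are read from the mouse genome NCBIM37 (the assembly of mm9) at the coordinates of the table, 5′ to 3′ on the strand of the gene. Capitals mark ACA placed 3 bases before the 3′ end, the box that gives H/ACA RNAs their name, and TGATGA and CTGA, the usual forms of boxes C and D, searched on this strand in the first 20 and the last 15 bases.
Snora64: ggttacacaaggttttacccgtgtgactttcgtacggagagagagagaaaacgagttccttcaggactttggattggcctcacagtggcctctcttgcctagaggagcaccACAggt
Snora70: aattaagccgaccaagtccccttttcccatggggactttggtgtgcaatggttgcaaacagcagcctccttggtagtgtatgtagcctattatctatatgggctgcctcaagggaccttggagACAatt
Snord82: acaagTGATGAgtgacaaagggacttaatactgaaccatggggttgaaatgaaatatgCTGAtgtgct
Snord61: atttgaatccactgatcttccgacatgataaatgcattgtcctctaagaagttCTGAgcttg
Both Snora loci shown ended in ACA and 3 further bases, as did 28 of 34 annotated mouse Snora genes (82.4%) and 0 of 64 annotated Snord genes. Snord82 held both boxes, as did 38 of 64 annotated Snord genes (59.4%) and 0 of 34 Snora genes. Snord61 held CTGA, and TGATGA did not occur in its first 20 bases. The table row of Snord61 starts downstream of the 5′ end of the annotated gene, so the letters before it were not searched.

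The hosts of 5 loci are described here, and each of these loci lay in an intron of a gene that is also a row of the table, on the same strand. Snora62 (gene ID 104433) lay in intron 4 of 6 of Rpsa, which encodes a protein of the small ribosomal subunit. Snora64 (gene ID 104366, chr17:24857734-24857850, plus strand) lay in intron 2 of 4 of Rps2, another small subunit protein gene. Snora70 (gene ID 104368, chrX:71517831-71517959, plus strand) lay in intron 5 of 6 of Rpl10, which encodes a protein of the large subunit. The hosts of 2 loci are not ribosomal protein genes. Snord82 (gene ID 80828, chr1:88252835-88252902, minus strand) lay in intron 5 of 13 of Ncl, which encodes nucleolin, an abundant protein of the nucleolus. Snord61 (gene ID 353374, chrX:54644625-54644686, minus strand) lay in intron 2 of 8 of Rbmx, which encodes an RNA-binding protein with a part in splicing.

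The value of a gene in a library was the average peak value, the height of overlapping fragments at the highest point of each active region of the gene, averaged over its active regions. An active region is a stretch formed by merging overlapping SICER intervals, the enriched intervals called against Input. At Snora62 the height was 43 without and 42 with PJ34 in *Parp14*+/+ cells, and 42 without and 35 with PJ34 in *Parp14*-/- cells. At Snora64 it was 34, 26, 40 and 38 in the same order. At Snora68 it was 60, 40, 38 and 41. At Snora68 the untreated *Parp14*+/+ library stood above the other 3, which lay between 38 and 41. Values written as a row of 4 follow this order of libraries throughout.

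At Snora70 the height was 26, 29, 33 and 33, so that both *Parp14*-/- libraries were above both *Parp14*+/+ libraries. At Snord82 it was 43, 34, 37 and 44, with the untreated *Parp14*+/+ and the PJ34-treated *Parp14*-/- library as the higher pair. At Snord61 it was 13, 12, 8 and 4, with both *Parp14*+/+ libraries above both *Parp14*-/- libraries.

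**Figure D1:**
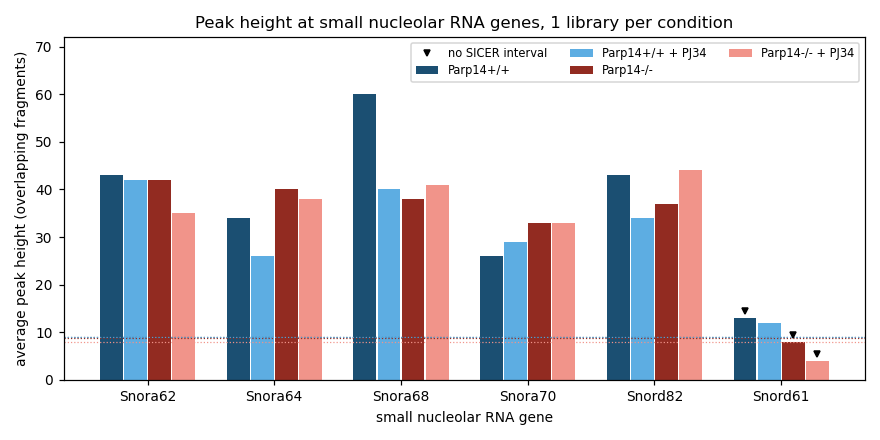
Average peak height (overlapping fragments) at the 6 small nucleolar RNA genes, 1 bar per library and no error bar because each condition had 1 library. Dotted lines mark the median height over 7274 genes (8 to 9), and arrowheads mark libraries without a SICER interval at the gene. Snora68 is highest in untreated *Parp14*+/+ (60 against 38 to 41), and Snord61 runs from 13 down to 4.

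These heights were high for this table at all loci but Snord61. The background is 8551 rows with a SICER interval in at least 1 library, or 7274 genes once neighbours with the same values were counted once, and its median height was 9 in both *Parp14*+/+ libraries, and 8.67 without and 8 with PJ34 in *Parp14*-/- cells. In *Parp14*+/+, 98.0% of these genes were lower than Snora62, 96.5% lower than Snora64, 99.2% lower than Snora68, 93.4% lower than Snora70 and 98.0% lower than Snord82. For Snord61 this share was 74.4% in *Parp14*+/+ and 4.50% in *Parp14*-/- + PJ34. A peak height is a maximum and is not divided by the length of the gene, so these shares place each locus in the table and do not rank the loci by transcription.

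A SICER interval lay over Snora62, Snora64, Snora68, Snora70 and Snord82 in all 4 libraries. Of the background genes, 52.6% had an interval in all 4. Snord61 had an interval in *Parp14*+/+ + PJ34 alone. The height of 13 in untreated *Parp14*+/+ therefore had no enriched interval under it, and that of 12 with PJ34 did. By library, 5, 6, 5 and 5 of the 6 loci had an interval, beside 82.1%, 80.8%, 70.4% and 66.6% of the background genes.

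The value of a snoRNA row was the value of its host for 4 of the 5 hosts described. Snora62, Snora64, Snora70 and Snord82 repeated the heights of Rpsa, Rps2, Rpl10 and Ncl in all 4 libraries, because the gene and its host lay in 1 active region. The active region of Snora62 was 12300 bp long, that of Snora68 was 8550 bp long and that of Snord82 was 29850 bp long. Snora64 shared its values with Ndufb10 and Rnf151 as well as Rps2, and Snora62 with EG546166 as well as Rpsa, so the heights at both loci do not belong to 1 gene alone. Snord61 differed from its host, since Rbmx was averaged over 2 active regions and had heights of 9.5, 10.5, 7.5 and 5. The region of Snord61 is 1 of these 2, so the rows are not independent and a likeness between them is in part built in. In both rows the *Parp14*-/- + PJ34 library was lowest.

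Other annotated snoRNAs lay in the same active regions without a row of their own in the table. The region of Rps2 also holds Snora78. The region of Ncl also holds Snora75 and a copy annotated as SNORD20, and that of Rpsa holds copies annotated as SNORA62 and SNORA73. The heights of Snora64, Snord82 and Snora62 are in this sense heights of an active region that holds a group of guide RNA genes. A shared region is not a shared host, and among snoRNAs with a mouse symbol Rps2 itself held Snora64 alone.

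The highest point of the signal was at an end of the host rather than inside the snoRNA gene. Over the 17 cases of a library with an interval at a locus whose host is described, 10 highest points lay within 500 bp of the host start, 7 lay downstream of the host end and 0 lay in the snoRNA. They were 646 to 13734 bp away from the snoRNA start. At Snora64 the highest point was 34 bp downstream of the Rps2 start in all 4 libraries. At Snora70 it was within 28 bp of the Rpl10 start in all 4. The highest point of these active regions was thus at the host start in every condition. Ndufb10 and Rnf151 share the active region of Rps2, and their part in its highest point was not tested.

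At Snora62 the highest point was past the 3′ end of the host in every library. Past Rpsa it was 465 and 1233 bp downstream without and with PJ34 in *Parp14*+/+ cells, and 913 and 753 bp in *Parp14*-/- cells. As background, the elongating polymerase that the antibody recognises continues past the polyadenylation site of a gene before it is released. EG546166 shares the active region of Rpsa, and its part in these summits was not tested.

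Ncl was the 1 host whose highest point changed place. In *Parp14*+/+ cells it was past the gene, by 238 bp without and 2126 bp with PJ34. In *Parp14*-/- cells it was 158 bp downstream of the Ncl start without PJ34, and 430 bp past the gene with PJ34. The single interval of Snord61, in *Parp14*+/+ + PJ34, was 2700 bp long, reached from before the Rbmx start to just beyond the snoRNA and had its highest point 123 bp downstream of the Rbmx start. The 1 interval at Snord61 thus had its highest point at the 5′ end of Rbmx and not at the snoRNA.

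**Figure D2:**
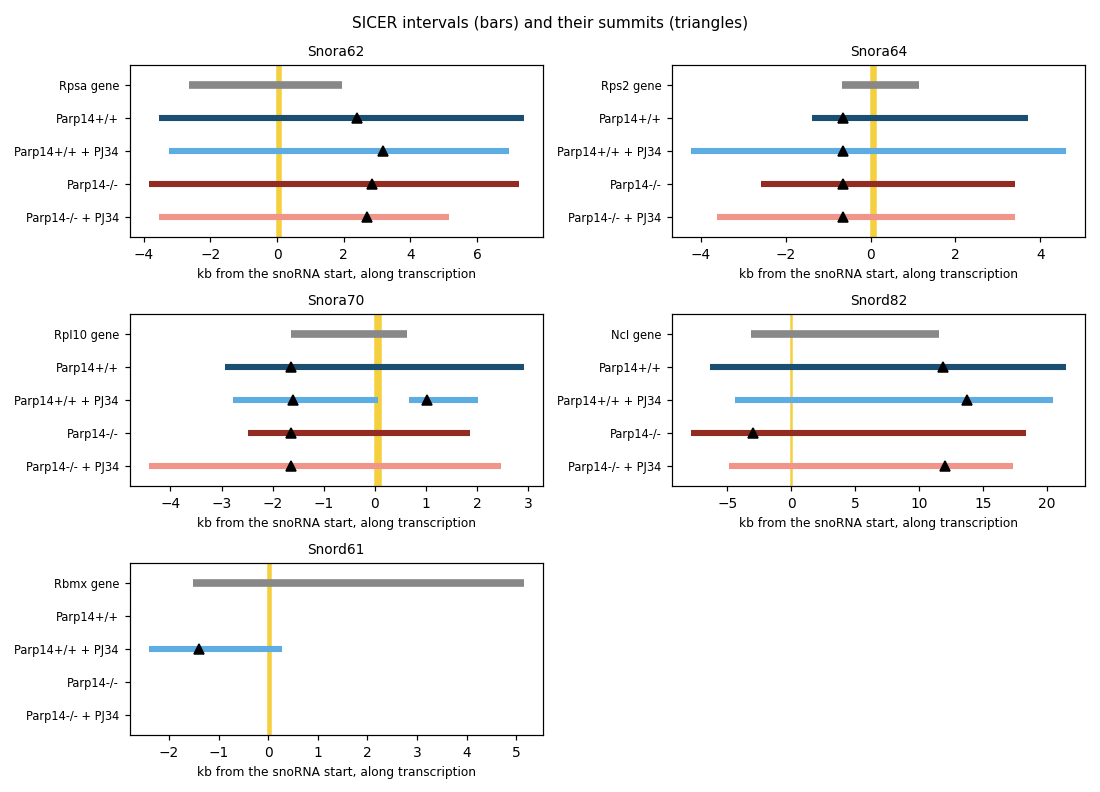
SICER intervals (coloured bars) and their highest points (triangles) in each library at 5 loci, in kb from the start of the snoRNA along the direction of transcription. The grey bar is the host gene and the yellow band the snoRNA. The triangles sit at the host start at Rps2 and Rpl10, beyond the host end at Rpsa, and on either side at Ncl, and 0 of them lie in a yellow band.

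The length of the interval was compared with the height at each locus. At Snora68 it was 7350 bp without and 7950 bp with PJ34 in *Parp14*+/+ cells, and 7650 bp without and 6150 bp with PJ34 in *Parp14*-/- cells, although the height was 60 in the first and 38 to 41 in the others. At Snora64 it was 5100, 8850, 6000 and 7050 bp, longest in the library with the lowest height. At Snora62 it was 10950, 10200, 11100 and 8700 bp, shortest in the library with the lowest height. At Snord82 it was 27900, 24900, 26250 and 22200 bp, shortest in the library with the greatest height. At Snora70 it was 5850, 4200, 4350 and 6900 bp, and in *Parp14*+/+ + PJ34 it was made of 2 intervals with a gap, the first of which covered 70 of the 129 bases of the snoRNA.

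To determine whether signal at these genes depended on PARP-14, the *Parp14*+/+ to *Parp14*-/- ratio of heights was taken, and a gene was called above 1.4 or below 0.7, the limits of the study, where the library with the greater height had a SICER interval. A single library stands for each condition, so the spread between replicates is unknown and no test was made, and the 95% interval given with a ratio is the exact binomial interval of the heights taken as counts, which leaves out any variation from culture to culture. Of the 6 loci, 1 was called above and 0 below, beside 10.8% and 8.99% of the 7274 background genes. Most of these genes were lower than the loci other than Snord61, and counting alone takes low heights past fixed limits more often. Shares of background genes, here and below, are therefore not matched for height. Snora68 was the locus called, with a ratio of 1.58 (1.03 to 2.44), and its interval was the only one over the 6 loci and 4 comparisons that excluded 1. Among this many intervals at 95%, 1 may exclude 1 where nothing differs. The share of background genes whose interval excluded 1 is not given here. The height of Snora68 is that of its whole active region, not of the snoRNA alone. It is a maximum and not a plain count, so the interval is approximate.

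The loci in Rpsa, Rps2 and Rpl10 had ratios close to or below 1. The ratio was 1.02 (0.653 to 1.61) at Snora62, 0.85 (0.522 to 1.38) at Snora64 and 0.788 (0.453 to 1.36) at Snora70. Snord82 in Ncl had a ratio of 1.16 (0.731 to 1.85), from highest points at different ends of the gene. Snord61 in Rbmx had a ratio of 1.63 (0.624 to 4.52), past the limit, but was not called because untreated *Parp14*+/+ had no interval there. The counting intervals of these 5 loci hold ratios on both sides of 1, so a difference was not detectable at this depth. The median ratio of the 6 loci was 1.09, beside 1.00 over all background genes.

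With PJ34 in both genotypes, 1 locus was called above and 1 below, beside 20.2% and 4.55% of the background genes. Snord61 was above with a ratio of 3.00 (0.909 to 12.8), from heights of 12 and 4. The active region of Snord61 was the interval of *Parp14*+/+ + PJ34 alone, the higher library of this pair. The locus could be called only through that library, which favours a ratio above 1, so no conclusion is drawn from this call. Snora64 was below with a ratio of 0.684 (0.399 to 1.16), from heights of 26 and 38. Snora68 had a ratio of 0.976 (0.615 to 1.55), Snora62 1.2 (0.748 to 1.94), Snora70 0.879 (0.515 to 1.49) and Snord82 0.773 (0.479 to 1.24). In this pair the median of all background genes was itself 1.15 (a shift of 0.20 on the log2 scale), and that of the 6 loci was 0.927.

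Set against that shift, 4 of the 6 loci lay below the middle of the table. With the median of all genes put at 1, the ratio was 0.595 at Snora64, 0.672 at Snord82, 0.764 at Snora70 and 0.848 at Snora68, while Snora62 was at 1.04 and Snord61 at 2.61. Snord82 then passed the lower limit as well, so that 1 locus was called above and 2 below. The share of background genes called under this scaling is not given here. The untreated pair had no such shift, its median being 1.00.

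**Figure D3:**
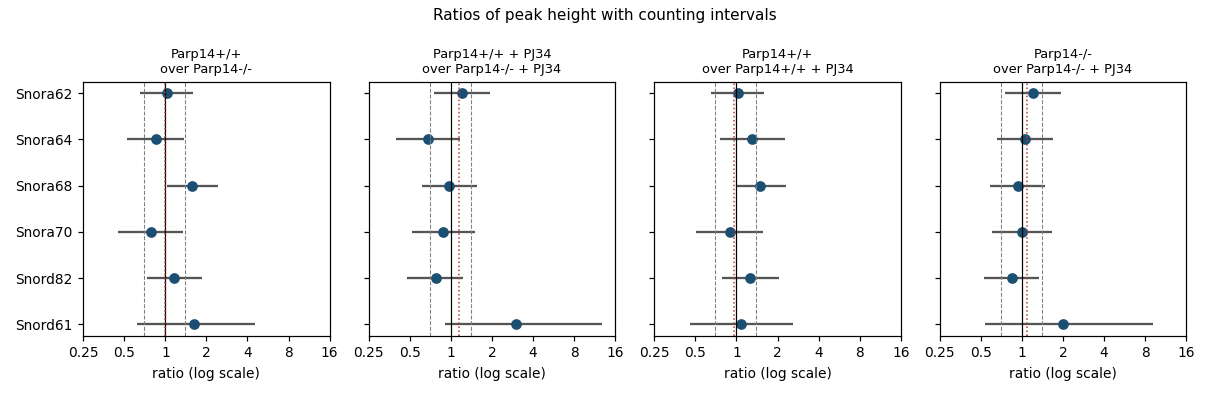
Ratio of average peak heights (log scale) in 4 comparisons at the 6 loci, with points for the ratio and bars for the 95% exact binomial interval of the heights taken as counts. Dashed lines mark 0.7 and 1.4 and the red dotted line the median of all background genes. The bar of Snora68 in the untreated genotype comparison (1.03 to 2.44) is the 1 bar that leaves out a ratio of 1.

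The effect of PJ34 was compared in each genotype. In *Parp14*+/+ cells 1 locus was called above in the *Parp14*+/+ to *Parp14*+/+ + PJ34 ratio and 0 below, beside 5.8% and 9.4% of the background genes. This was Snora68, with a ratio of 1.5 (0.989 to 2.30). The ratio was 1.31 (0.762 to 2.27) at Snora64, 1.26 (0.788 to 2.04) at Snord82, 1.08 at Snord61, 1.02 at Snora62 and 0.897 at Snora70. The study took a ratio of 0.83 to 1.2 as no difference, on its own average values and for genes already called between genotypes. On the heights used here, Snora68, Snora64 and Snord82 were outside that range and the other loci were within it. The counting intervals of Snora68, Snora64 and Snord82 include 1. Thus 5 of 6 loci were higher without PJ34, with a median of 1.17 beside 0.952 over all background genes. This comparison and the untreated genotype comparison share the *Parp14*+/+ library, so the height of 60 at Snora68 enters both.

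In *Parp14*-/- cells 0 loci were called in the *Parp14*-/- to *Parp14*-/- + PJ34 ratio, beside 11.2% above and 3.93% below among the background genes. Snora62 had a ratio of 1.2, Snora64 1.05, Snora70 1.00, Snora68 0.927 and Snord82 0.841. Snord61 had a ratio of 2.00 (0.536 to 9.08) from heights of 8 and 4, neither of which had an interval. The median of the 6 loci was 1.03, beside 1.09 over all genes (a shift of 0.12 on the log2 scale). A call with PJ34 in *Parp14*+/+ and none in *Parp14*-/- does not show that the genotypes differ, which was not tested.

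**Figure D4:**
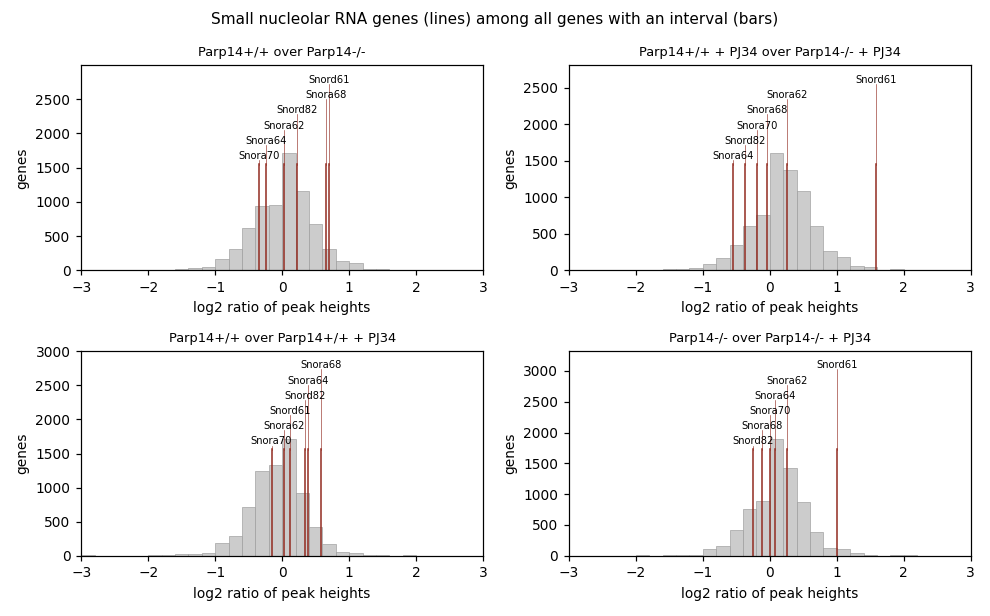
Number of background genes (bars) by log2 ratio of peak heights in 4 comparisons, with the 6 small nucleolar RNA genes as labelled lines. Most lines fall within the bulk of the genes, and Snord61 lies at the right edge with PJ34 in both genotypes (a ratio of 3.00). The active region of Snord61 came from the higher library of that pair alone.

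The 3 loci in Rpsa, Rps2 and Rpl10 and the 2 in Ncl and Rbmx were set side by side as ribosomal protein and other hosts, with Snora68 in neither class. In the untreated genotype comparison the median ratio was 0.85 for ribosomal protein hosts (0.788 to 1.02) and 1.39 for other hosts (1.16 to 1.63). With PJ34 in both genotypes it was 0.879 (0.684 to 1.2) and 1.89 (0.773 to 3.00). For PJ34 in *Parp14*+/+ it was 1.02 and 1.17, and for PJ34 in *Parp14*-/- it was 1.05 and 1.42. Snora68 had a ratio of 1.58 in the untreated comparison, within the range of the other hosts, so the separation seen there holds for these 5 loci and rests on which loci are classed. The class of other hosts includes Rbmx, whose heights were low. The region of Snord61 there came only from the interval in *Parp14*+/+ + PJ34, so the median of 1.89 leans on that library.

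Because 6 rows are few, the host classes were also compared over all table genes that hold an annotated snoRNA, a set chosen after the values of the 6 loci had been seen. The annotation gave 107 mouse snoRNA and scaRNA genes with a mouse symbol, of which 87 lay inside a table gene on the same strand. These fell in 62 table genes, 58 of them with a name that fits their coordinates, and 57 had an interval and separate values. The set held 20 ribosomal protein hosts and 37 other hosts, the hosts of the 6 loci among them. Among the others are Gas5 and Snhg3, non-coding hosts, Eef2 and Eif4a2, factors of translation, and Nop56 and Nop58 (listed as Nol5a and Nol5), which encode core proteins of C/D particles.

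In the untreated genotype comparison, 3 of 20 ribosomal protein hosts were called above and 0 below, and 6 of 37 other hosts were called above and 0 below, beside 10.8% and 8.99% of all background genes. The median height in untreated *Parp14*+/+ was 34 for ribosomal protein hosts and 22 for other hosts, beside 9 for the background genes. The shares are not matched for this difference in height. The median ratio was 1.2 for ribosomal protein hosts and 1.08 for other hosts, so the order of the classes was the opposite of that at the 5 loci. Without the 5 hosts described above it was 1.24 over 17 ribosomal protein hosts and 1.07 over 35 other hosts. The ribosomal protein hosts called included Rpl13, which carries Snord68 and had heights of 53, 28, 34 and 33, and Rpl3, which carries Snord83b and had heights of 69, 55, 46 and 51. Among the other hosts, Rabggtb, which carries Snord45b, had heights of 22, 14, 9 and 10 and the highest ratio of the set (2.44). Names in this set were chosen after the values were seen.

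With PJ34 in both genotypes, 0 of 20 ribosomal protein hosts were called above and 1 below, and 6 of 37 other hosts were called above and 4 below, beside 20.2% and 4.55% of all genes. The medians were 0.937 and 1.00, both under the 1.15 of all genes. The other hosts called below included Nop58, which carries Snord70 and Snord11, with heights of 16 in *Parp14*+/+ + PJ34 and 32 in *Parp14*-/- + PJ34. Those called above included Snx5, which carries Snord17, with heights of 33 and 22. The host of Snord61, Rbmx, had the highest ratio of the set in this pair (2.10, 0.947 to 4.99). Of its 2 active regions, 1 is that of Snord61, which came from the *Parp14*+/+ + PJ34 interval alone and favours a ratio above 1. No conclusion is drawn from this ratio.

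With PJ34 in *Parp14*+/+ cells, 6 of 20 ribosomal protein hosts were called above and 0 below, and 7 of 37 other hosts above and 1 below, beside 5.8% and 9.4% of all genes. The medians were 1.24 and 1.12, beside 0.952 over all genes. The ribosomal protein hosts called included Rpl13, Rpl5, Rpl37, Rpl39 and Rpl13a. Rpl5, which carries Snord21, had heights of 43 in *Parp14*+/+ and 25 with PJ34. Rpl39, which carries Snora69, had heights of 19 and 12. Leaving out the 5 hosts described above, 6 of 17 ribosomal protein hosts and 7 of 35 other hosts were called above. The *Parp14*+/+ library is part of this comparison and of the untreated genotype comparison, so the shares of calls in the 2 are not independent.

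With PJ34 in *Parp14*-/- cells, 2 of 20 ribosomal protein hosts were called above and 1 below, and 5 of 37 other hosts above and 1 below, beside 11.2% and 3.93% of all genes. The medians were 1.02 and 1.00, under the 1.09 of all genes. Rplp2, which carries Snora52, was among those above with heights of 38 and 25, and Rps13, which carries Snord14a, was the ribosomal protein host below with heights of 19 and 31.

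**Figure D5:**
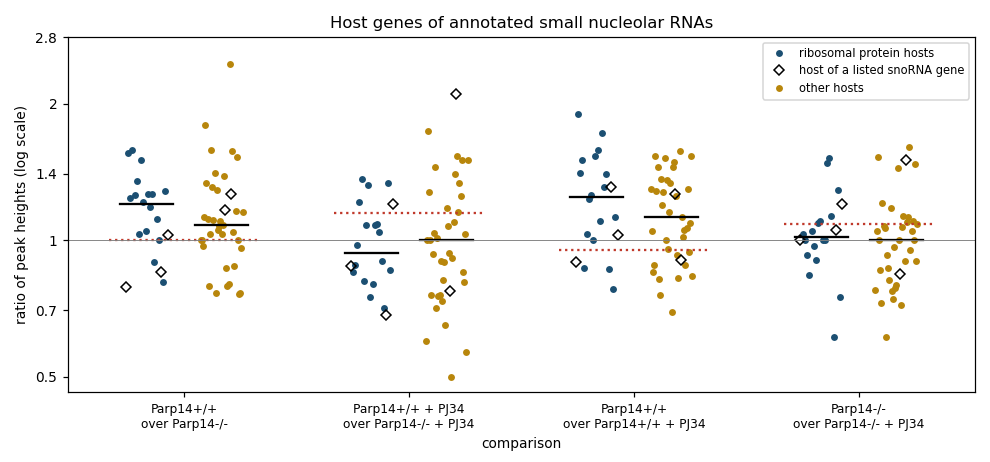
Ratio of peak heights (log scale) for 57 host genes of annotated small nucleolar RNAs in 4 comparisons, ribosomal protein hosts in blue and other hosts in ochre, with diamonds for the 5 hosts described above. Black bars are class medians and red dotted lines the medians of all background genes. In the comparison of untreated with PJ34-treated *Parp14*+/+ cells both class medians (1.24 and 1.12) lie above the median of all genes (0.952).

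SnoRNAs act in particles with proteins, and the genes of these proteins and of snoRNA processing factors were taken from a list of 32 symbols, older names included. Some genes are on the list under both an older and a current symbol, so 32 is more than the number of genes. Rows listed as Napg, Otop1 and Aim2 were taken as Shq1, Znhit3 and Coil. Of the genes, 25 were in the table and 22 had an interval. In the untreated genotype comparison 2 were called above and 1 below, beside 10.8% and 8.99% of all background genes, and the median ratio was 0.95 beside 1.00. With PJ34 in both genotypes 1 was called above and 1 below, beside 20.2% and 4.55%, with a median of 0.956 beside 1.15. For PJ34 in *Parp14*+/+ 2 were called above and 1 below, beside 5.8% and 9.4%, with a median of 1.00 beside 0.952. For PJ34 in *Parp14*-/- 0 were called, beside 11.2% and 3.93%, with a median of 0.988 beside 1.09.

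Core proteins of both particle classes are described first, and none of these 3 passed the limits in the untreated genotype comparison. Fbl, the methyltransferase of C/D particles, had heights of 51, 32, 39 and 40, and was called in the comparison of PJ34 in *Parp14*+/+ with a ratio of 1.59 (1.00 to 2.56). Dkc1, the pseudouridine synthase of H/ACA particles, had heights of 7.5, 7, 10.5 and 8.5 and was not called in any comparison. Nop10 (listed as Nola3), an H/ACA protein, had heights of 15, 8, 11 and 19 and was called for PJ34 in *Parp14*+/+ with a ratio of 1.88 (0.746 to 5.11).

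Snu13 (listed as Nhp2l1), the protein that binds box C/D first, was the member called below in the untreated genotype comparison, with heights of 14 and 22.5 and a ratio of 0.622 (0.374 to 1.02). Nop58 was the member called below with PJ34 in both genotypes, with a ratio of 0.5 (0.256 to 0.938). Ruvbl2, a helicase of particle assembly, was called above in the untreated genotype comparison from heights of 7 and 4.5. Znhit6 (listed as 2410019A14Rik), an assembly factor of C/D particles, was called above in the untreated comparison, from 8 and 5, and with PJ34, from 9 and 6. Tgs1, which modifies the cap of some small RNAs, was called below for PJ34 in *Parp14*+/+ with a ratio of 0.575 (0.329 to 0.984).

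Rows just outside the length limit give the scale of the rule. The row of Snora65 spans 599 bp, and its heights were 34, 29, 25 and 29. Its table coordinates lie beside the annotated snoRNA, which is in intron 4 of 6 of Rpl12. The row of Snord22 spans 2955 bp, and its heights were 27, 26, 38 and 28. Its accession is that of Snhg1, a non-coding host, whose active region holds 8 annotated snoRNAs.

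The labels were checked at Parp14, a gene of 38623 bp, where intervals covered 22873 and 20836 bp without and with PJ34 in *Parp14*+/+ cells, but 2686 and 3286 bp in *Parp14*-/- cells. The height at this gene, a maximum, differed less and was 8, 11, 6.67 and 6.67. The 4 Th2 markers (Gata3, Il4, Il5 and Il13) had intervals in both *Parp14*+/+ libraries, 3 of 4 had them in both *Parp14*-/- libraries, and their summed height was 180, 151, 95 and 77. Both Th1 markers had intervals in all 4 libraries, with summed heights of 50, 42, 42 and 33. All 4 CD4 T cell markers (Cd3e, Cd3g, Cd4 and Cd28) were in the table, with summed heights of 45.5, 55, 44 and 38.5 and intervals at 4, 3, 2 and 3 of the 4. Cd4 had no interval in untreated *Parp14*-/- cells. Cd8a and Ms4a1 had no interval in any library. Of further B cell and myeloid markers in the table, Cd79a repeated the values of its neighbour Rps19, Itgam had heights of 1, 4, 0 and 2, and Csf1r had heights of 8, 8.5, 6 and 5.5. The share of other cells in each culture, and its part in the heights of the snoRNA hosts, was not tested.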

How the data were processed

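RNA Polymerase II ChIP-Seq of 4 cultures and an Input was analysed, with 1 library per condition taken from the labels. The authors mapped 36-nt reads to mm9 with ELAND, removed duplicates, set each library to 8200000 uniquely mapped alignments and called intervals with SICER against Input. They deposited the intervals of each library and a gene table whose signal is the average peak height of each gene. Unique mapping can lower the signal of genes with near-identical copies, such as ribosomal protein genes with pseudogenes. A further 8 columns of per-sample values in that table, from libraries not analysed here, were not used. The study's own tables give another quantity, an average over the gene, so the height of 11 that stands for its limit of 2 in an alternative is an approximation.

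Rows were named as in the table and checked by accession (RefSeq, GRCm38.p6, names only) and by coordinates (GENCODE on NCBIM37, which is mm9). The host was the longer overlapping row. Ribosomal protein hosts were taken by their symbols. Genes named were the loci whose genotype ratio had an interval excluding 1, the 5 highest in *Parp14*+/+, the 5 highest and lowest ratios among loci with a height of at least 20, and their hosts. This rule took in every locus. The host of Snora68, the sequences of Snora62 and Snora68 and some other genes are not reported here, and Snora68 was left out of results that use the host. Of the list of particle proteins, members called, or whose interval excluded 1, were named, and Dkc1 in addition after its values were seen. The members, lists and rules were chosen with earlier results of these data known. Ratios and exact binomial (Clopper-Pearson) 95% intervals were computed with Python 3.11.15, numpy 2.4.6, pandas 2.3.3 and scipy 1.17.1 and checked on simulated data. Heights were used without scaling or pseudocount, and depth was equal by construction.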

Additional observations from a re-analysis of the deposited data

Results flagged for a closer look

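Snora68 and Snord82 were picked out because their genotype ratio lay above 1 without PJ34 and below 1 with it. At Snora68 the *Parp14*+/+ to *Parp14*-/- ratio was 1.58 without PJ34 and 0.976 with it, the second from heights of 40 and 41, and the first divided by the second was 1.62. At Snord82 the ratios were 1.16 and 0.773, both with counting intervals that include 1, and the first divided by the second was 1.5. The untreated *Parp14*-/- height was from near the Ncl start and that of the other libraries from past the gene, so the first ratio compares different places. Each ratio rests on 1 library per condition, so the difference was not tested.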

How the results depend on the processing

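The fold limits set how many of the 6 loci were called. The shares of all background genes under the alternatives that follow are not given here, so these counts describe the listed genes alone. With limits of 2 and 0.5 the number was 0 in the untreated genotype comparison, 1 with PJ34 in both genotypes (Snord61) and 0 for PJ34 in *Parp14*+/+. With the study's added range of 1.2 to 1.4 and 0.7 to 0.83 for heights of at least 11, it was 2, 4, 3 and 1 in the 4 comparisons, the last being PJ34 in *Parp14*-/-. The study used that range for the genotype ratio only. Without the need for a SICER interval, Snord61 was added and the number was 2 in the untreated comparison and 1 for PJ34 in *Parp14*-/-. From the highest summit of the deposited intervals, Snord61 had no value in *Parp14*-/- + PJ34, and 1 locus (Snora64) was called with PJ34 in both genotypes. The difference of median ratios, ribosomal protein minus other hosts, was -0.54 at the 5 loci classed and 0.12 over all 57 hosts in the untreated comparison, and -1.01 and -0.063 with PJ34, the larger set having been added after seeing the data. For the 22 particle protein genes, limits of 2 and 0.5 left 0 called in the untreated comparison, 0 with PJ34 in both genotypes and 0 for PJ34 in *Parp14*+/+, and with the median of all genes put at 1 the numbers called were 5 with PJ34 in both genotypes, 5 for PJ34 in *Parp14*+/+ and 1 for PJ34 in *Parp14*-/-. No paired analysis was possible because the labels carry no replicate numbers, and with 1 library per condition no replicate could be left out. A model over both genotypes and both treatments was not run. Counting error alone spans a ratio range such as 0.653 to 1.61 at Snora62, which limits what these heights can show.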
